A study of Mus musculus with 25 samples.

Results

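Back skin of mice aged 1 year was compared with back skin of mice aged 9 weeks, using 7 of the 25 arrays of a survey of mouse skin over the hair cycle. The arrays were chosen by their titles alone: 4 are labelled as 1-year mice and 3 as 9-week mice. Each array measured total RNA of whole back skin from a sample labelled as 1 mouse, and the labels name no strain, sex, treatment or time of day of sampling. The survey also holds 3 arrays of 5-month mice, which entered the adult models for the spread between mice and for the hair score and its slope and are given as values beside some results, and 15 arrays of mice aged 1, 6, 14, 17 and 23 days, which served as a reference for hair growth and rest. Of 12422 probe sets that are not controls, 8835 passed the filter on low values and were tested. These represent 6569 named genes. The labels do not say that the mice were raised or housed apart, so p-values measure the spread between these samples only.

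Hair follicles alternate between growth (anagen), in which the hair shaft and its inner root sheath are built, regression (catagen) and rest (telogen). In young mice the follicles of the back pass through these phases together, whereas in adult mice patches of skin cycle out of step, so 2 adults of the same age can be in different phases. Hair shaft keratins and keratin-associated proteins are made almost only during growth, which makes their RNA a marker of phase. Skin also holds resident macrophages and dendritic cells, fat, muscle and nerve, all of which lie in the samples. In bulk tissue, fewer cells of a type and less RNA per cell cannot be told apart.

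The promoters of 4 genes that mark growing follicles are shown because the mice of both ages differed most in such genes. Krtap3-1 and Krtap8-1 encode keratin-associated proteins of the hair shaft, and Krt71 and Krt25 encode keratins of the inner root sheath. The 100 bases before the gene start were taken from RefSeq on GRCm38.p6, as the gene's own strand 5′ to 3′, and the letters TATAAA, the core of the TATA box, are in capitals. The positions are chr11:99566631-99566730 for Krtap3-1, chr16:89487953-89488052 for Krtap8-1, chr15:101743098-101743197 for Krt71 and chr11:99322952-99323051 for Krt25, all on the minus strand.
Krtap3-1: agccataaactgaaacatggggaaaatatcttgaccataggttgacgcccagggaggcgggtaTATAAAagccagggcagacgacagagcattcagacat
Krtap8-1: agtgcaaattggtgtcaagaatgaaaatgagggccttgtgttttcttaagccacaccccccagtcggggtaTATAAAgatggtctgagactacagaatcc
Krt71: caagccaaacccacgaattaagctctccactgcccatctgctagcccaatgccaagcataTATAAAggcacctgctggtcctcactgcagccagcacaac
Krt25: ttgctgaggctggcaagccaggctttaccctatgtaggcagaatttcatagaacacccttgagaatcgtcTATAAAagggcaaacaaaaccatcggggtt
The motif begins 37, 29, 40 and 30 bases before the start of these genes, in that order. In windows of 250 bases before to 50 after the start, TATAAA stood on the gene's strand in 12 of the 15 measured hair shaft genes with an entry in the promoter table, or 80%, and in 6 of 12 inner root sheath genes, or 50%. It stood there in 9.77% of the 27025 genes of the table. On the opposite strand the shares were 6.67%, 8.33% and 7.95%. Of the 13 genes that were lower at 1 year, described further on, 9 had an entry and 1 held the motif on its own strand. A match of letters describes the sequence and shows no binding.

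The hair genes came first in size and did not separate the ages. Of 21 measured hair shaft genes, 20 had a higher mean at 1 year than at 9 weeks, with a median log2 change of 2.36 against -0.01 over all genes, yet none passed the test (limma, lowest adjusted p = 0.435). Within each age the mice fell far apart. Krtap3-1 measured 207, 163 and 26434 intensity units in 9-week mice 1, 2 and 3, and 461, 30014, 63720 and 24688 in 1-year mice 1 to 4. Krt81, a hair cortex keratin, measured 183, 831 and 17735 units at 9 weeks and 521, 18289, 53787 and 13672 at 1 year. In both genes 9-week mouse 3 stood with 1-year mice 2, 3 and 4, and 1-year mouse 1 stood with 9-week mice 1 and 2, so that the ages overlapped.

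Krt86, another cortex keratin, measured 580, 545 and 17772 units at 9 weeks against 384, 18497, 49032 and 14034 at 1 year. Krtap5-1, a cysteine-rich protein of the hair cuticle, measured 1891, 1835 and 7085 units against 1562, 7582, 30467 and 7367. These 4 had the highest mean log2 value of the list over the adult mice. Their log2 changes were 3.66 ± 2.23 (SE) for Krtap3-1, 2.72 ± 1.79 for Krt81, 2.23 ± 1.77 for Krt86 and 1.30 ± 0.94 for Krtap5-1, with limma adjusted p between 0.5 and 0.578. The same order of mice held throughout the list: 1-year mouse 1 was the lowest and 1-year mouse 3 the highest of its age in all 21 genes, and 9-week mouse 3 was the highest of its age in all 21. In 18 of the 21 the mice of 1 age spanned over 16-fold. Besides those 4, these were Krtap6-3, Krtap8-1, Krt31, Krt34, Krtap12-1, Krtap5-4, Krtap14, Krtap6-2, Krt83, Krtap9-1, Krtap19-5, Krt32, Krt33b and Krt35. Keratin-associated genes are close copies of each other, and a probe set may respond to more than 1 of them.

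**Figure D1:**
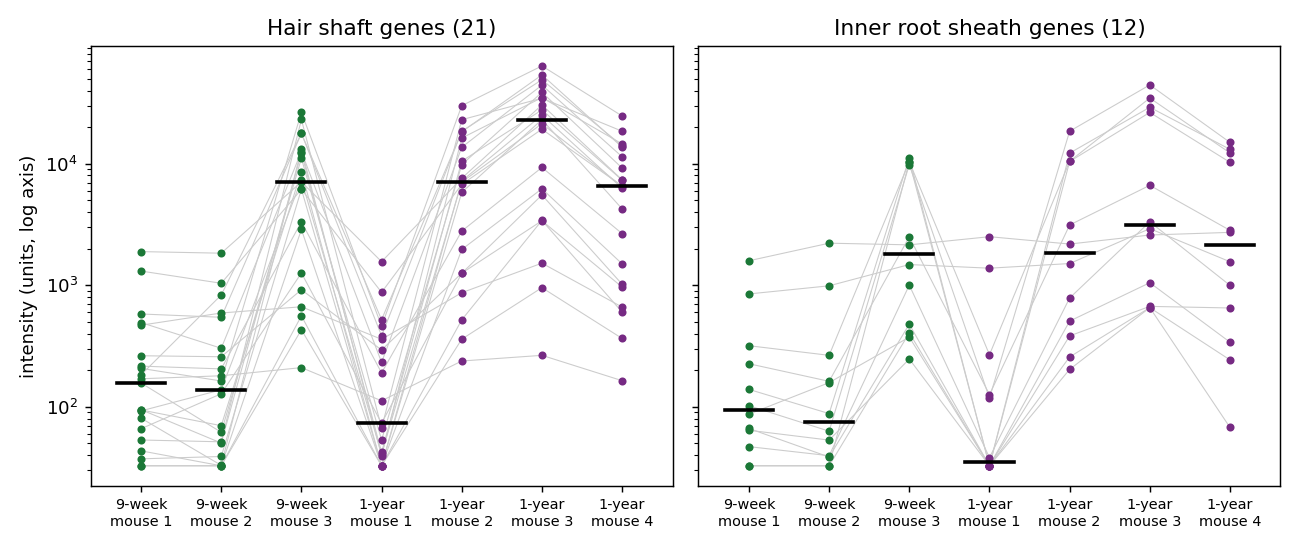
Intensity (units, log axis) of 21 hair shaft genes (left) and 12 inner root sheath genes (right) in each 9-week mouse (green) and 1-year mouse (purple). Points are genes, grey lines join 1 gene across mice and black bars are medians. 9-week mouse 3 and 1-year mice 2, 3 and 4 are high in most genes, and the other 3 mice are low.

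A hair shaft score was made for each mouse, as the mean log2 deviation of the 21 genes from their mean over the 10 adult mice. It was -2.44, -2.53 and 2.39 in 9-week mice 1 to 3 and -2.79, 2.39, 3.91 and 2.15 in 1-year mice 1 to 4. For reference, the same score was 3.70 to 3.91 on day 14, when follicles of young mice are in growth, and -2.36 to -2.56 on day 23, when they are at rest. A score from 12 inner root sheath genes put the mice in the same 2 sets, at -1.95, -2.11 and 1.87 for 9 weeks and -2.40, 1.89, 3.13 and 1.82 for 1 year. That list includes S100a3, a protein of the hair cuticle. By both scores 1 of 3 mice at 9 weeks and 3 of 4 at 1 year were high.

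Markers of sex moved with age and with the hair score. Xist, the RNA of the inactive X chromosome in females, measured 284 and 732 units in 9-week mice 1 and 2 and lay at the floor of 32.7 units in 9-week mouse 3 and in all 1-year mice. Eif2s3y, a Y-linked gene, was at the floor in 9-week mice 1 and 2 and measured 236 units in 9-week mouse 3 and 268 to 340 in the 1-year mice. By these markers 1 of 3 mice at 9 weeks and 4 of 4 at 1 year were male, and 1-year mouse 1 was the only male of the 7 with a low hair score. The 5-month mice followed the same order, with a hair score of 1.83 in mouse 2, where Eif2s3y was at 293 units, and of -2.53 and -2.39 in mice 1 and 3, which had Xist. 9-week mouse 3 is the only 9-week mouse that shares its marker with the 1-year mice. Results are therefore given with the markers in the model as well, as a single covariate, the log2 value of Xist minus that of Eif2s3y. Within the 9-week and 5-month mice, the markers and the hair score split the mice in the same way. A slope beside the markers thus rests mainly on the 1-year mice, where mouse 1 alone had a low score. In a fit without 9-week mouse 3, age and sex cannot be told apart.

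The young mice gave a wider measure of phase that does not rest on the hair shaft list. In a separate fit of the 15 young arrays, 24.4% of probe sets were higher on day 14 than on day 23 and 29.7% were lower (limma, adjusted p under 0.05). Outside the hair shaft list, 168 were at least 4-fold higher and 316 at least 4-fold lower. Over the 168 growth probe sets, 0% marks the day 23 mean and 100% the day 14 mean. The median place was 0%, 0% and 46.1% in 9-week mice 1 to 3, and -0.6%, 47.1%, 84.2% and 43.8% in 1-year mice 1 to 4. Thus 9-week mice 1 and 2 and 1-year mouse 1 sat at the resting level, 9-week mouse 3 and 1-year mice 2 and 4 sat midway, and 1-year mouse 3 came nearest to full growth.

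The 316 probe sets of rest gave another order. Their median place was 14.8%, 5.7% and 16.5% of the way to the day 14 level in 9-week mice 1 to 3, and 14.1%, 28.5%, 60.8% and 28.4% in 1-year mice 1 to 4. 9-week mouse 3 and 1-year mice 2 and 4 differed little on the growth probe sets, and on the rest probe sets the 9-week mouse stood nearer to rest. All 1-year mice lay below all 9-week mice in 67 of the 316 rest probe sets, or 21.2%, where the share over all probe sets tested was 7.04%. Of the 168 growth probe sets 6, or 3.57%, had all 1-year mice above all 9-week mice, against 4.53% over all. The median log2 change with age was 0.73 over the growth probe sets, 70 of which rose with the hair score, where 1.15% of all outside the hair list did. It was -0.42 over the rest probe sets, 2 of which fell with the score, against 0.182%. Age calls were 0 and 2, the latter both lower, against 0.147% over all.

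**Figure D2:**
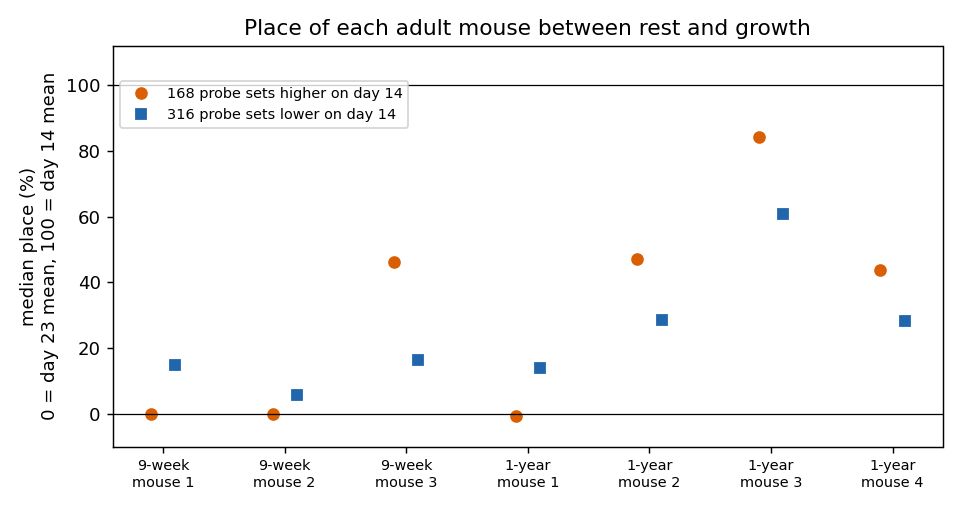
Place of each mouse between the day 23 mean (0%) and the day 14 mean (100%), as the median over 168 probe sets higher on day 14 (circles) and 316 lower on day 14 (squares). Circles of 9-week mice 1 and 2 and 1-year mouse 1 lie between -0.6% and 0%, and those of the other 4 mice between 43.8% and 84.2%.

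The next comparison asked which genes follow the hair state of single mice of 1 age. In a limma model with age and the hair shaft score, 101 probe sets outside the hair shaft list (1.15% of 8810, from 71 genes) rose with the score and 16 (0.182%, from 13 genes) fell with it. Of the 101 that rose, 94 were also higher on day 14 than on day 23 in the young mice, or 93.1%, where 24.2% of the 8810 were. Of the 16 that fell, 9 were lower on day 14, or 56.2%, against 29.8%, and 7 did not differ. With the sex markers added, where slopes rest mainly on the 1-year mice, 69 of the 117 kept their call, and 116 rose and 50 fell in all. The count was 65 without 5-month mouse 2 and 70 without 1-year mouse 1.

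Krt25 and Krt27, keratins of the inner root sheath, which moulds the growing shaft, had the steepest slopes on the score. Krt25 measured 32.7, 32.7 and 10375 units at 9 weeks and 32.7, 10425, 26414 and 10258 at 1 year. Krt27, its neighbour in the same family, measured 139, 87.9 and 11174 units at 9 weeks and 32.7, 12222, 29110 and 13112 at 1 year. Krt71, their type II partner, measured 102, 63.0 and 9821 units at 9 weeks and 118, 18503, 44475 and 14957 at 1 year. The low mice of both ages lay between 32.7 and 139 units in all 3 genes, and the high mice of both ages lay at 9821 units or more.

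Slopes, as the log2 change per unit of score, were 1.65 ± 0.07 (SE) for Krt25, 1.48 ± 0.06 for Krt27 and 1.39 ± 0.05 for Krt71, with limma adjusted p of 1.33e-07, 1.41e-07 and 5.06e-08. Their age changes were 3.80, 2.77 and 3.95, and none of the 3 passed the test of age, with adjusted p of 0.598, 0.673 and 0.502. With the score in the model these changes fell to 0.05, -0.60 and 0.80. In all, 10 of 12 measured inner root sheath genes followed the score, or 83.3%, against 1.15% of all probe sets outside the hair list. Among the 10 were Tchh, which encodes trichohyalin, the protein that fills inner root sheath cells, and Padi1, Padi3 and Padi4. These 3 encode the enzymes that convert its arginines to citrulline. S100a3, a protein of the hair cuticle, is also counted among the 10. The median age change of the list was 1.87 and became 0.04 with the score in the model. No member passed the test of age, and 8 of the 10 slopes kept their call with the sex markers added.

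Other steep slopes were those of Gm10229 (1.47 ± 0.05), which was steeper than Krt71, Gm10228 (1.33 ± 0.05), S100a3 (1.07 ± 0.03), Crym (1.06 ± 0.04) and Gjb2 (1.01 ± 0.04). S100a3 is a calcium-binding protein of the hair cuticle, Crym encodes mu-crystallin, a thyroid hormone binding protein, and Gjb2 encodes the gap junction protein connexin 26. As S100a3 shows, genes counted outside the hair shaft list can still be genes of the hair shaft. Gjb2 measured 157, 162 and 5574 units at 9 weeks and 370, 8688, 25506 and 8761 at 1 year. Of 41 measured follicle signals and transcription factors, 5 rose with the score, or 12.2%, against 1.15% of all probe sets outside the hair list. The 5 were Msx2, Dlx3, Foxn1, Dlx2 and Tgfa, and no member of the list passed the test of age. With the sex markers added, Msx2 and Dlx3 kept the call, and Foxn1, Dlx2 and Tgfa had limma adjusted p of 0.0532, 0.176 and 0.0695. Msx2, a homeobox factor of the hair matrix, measured 32.7, 32.7 and 375 units at 9 weeks and 32.7, 564, 1742 and 504 at 1 year. Dlx3, another homeobox factor, measured 265, 374 and 1451 units and 249, 1829, 4024 and 1679.

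Of 34 measured genes of epidermal differentiation 10 rose with the score, or 29.4%, against 1.15% of all outside the hair list, and none fell. With the sex markers added 5 of the 10 kept the call, Sprr1a and Krt17 among them. Sprr1a, a small proline-rich protein of the cornified envelope, measured 4004, 2613 and 17915 units at 9 weeks and 1488, 22661, 49272 and 20420 at 1 year. Krt17, a keratin of the outer root sheath, measured 4814, 3893 and 7724 units and 3422, 9124, 15580 and 7193. Filaggrin, Flg, which bundles keratin in the outer epidermis, measured 1392, 1753 and 2918 units and 2161, 3036, 4936 and 3228. The slopes were 0.60 for Sprr1a, 0.23 for Krt17 and 0.17 for Flg. The range across mice was wide for Sprr1a and narrow for Flg, and in each gene 9-week mouse 3 exceeded 9-week mice 1 and 2. In the young mice Flg went the other way, by -0.53 on day 14 against day 23 (limma adjusted p = 0.00433), and with the sex markers in the adult model its slope had an adjusted p of 0.072. Tyrp1, a pigment enzyme, was the only one of 11 pigment cell genes that rose with the score, at 32.7, 35.9 and 362 units against 90.2, 160, 1331 and 220, and its slope was not called with the sex markers added (limma adjusted p = 0.113). None of 60 cell division genes followed the score. Their median age change was 0.59.

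Genes that fell with the score changed less. Anxa3, an annexin that binds membranes in the presence of calcium, measured 610, 556 and 292 units at 9 weeks and 589, 211, 225 and 243 at 1 year. Tef, a transcription factor with a daily rhythm, measured 3173, 3557 and 2470 units and 3740, 1539, 1116 and 1670. Ptgis, the prostacyclin synthase, measured 204, 205 and 54.9 units and 120, 32.7, 32.7 and 32.7. In Anxa3 and Tef, 1-year mouse 1 stood with the resting 9-week mice and apart from the other mice of its age.

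The slopes were -0.22 ± 0.03 for Anxa3, -0.18 ± 0.03 for Tef and -0.30 ± 0.05 for Ptgis, with limma adjusted p of 0.00234, 0.0120 and 0.0182. The other large falls were those of Phkg1 (-0.35), Sdc3 (-0.35), Ccn3 (-0.33), Mrvi1 (-0.25) and Fgf4 (-0.20). With the sex markers added, Anxa3, Tef and Fgf4 kept the call, and Ptgis, Phkg1, Sdc3, Ccn3 and Mrvi1 did not (limma adjusted p 0.064, 0.186, 0.0647, 0.176 and 0.152). With the floor at the 40th percentile the same 5 calls were lost. Phkg1 encodes the muscle form of a phosphorylase kinase subunit, and it was the only one of 42 skeletal muscle genes called. The summed level of that list was 327180 to 372759 units at 9 weeks, and 585703, 344686, 158019 and 363275 in 1-year mice 1 to 4, so muscle RNA was highest in the resting 1-year mouse and lowest in the mouse with the highest hair score. Its part in the slopes was not tested.

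**Figure D3:**
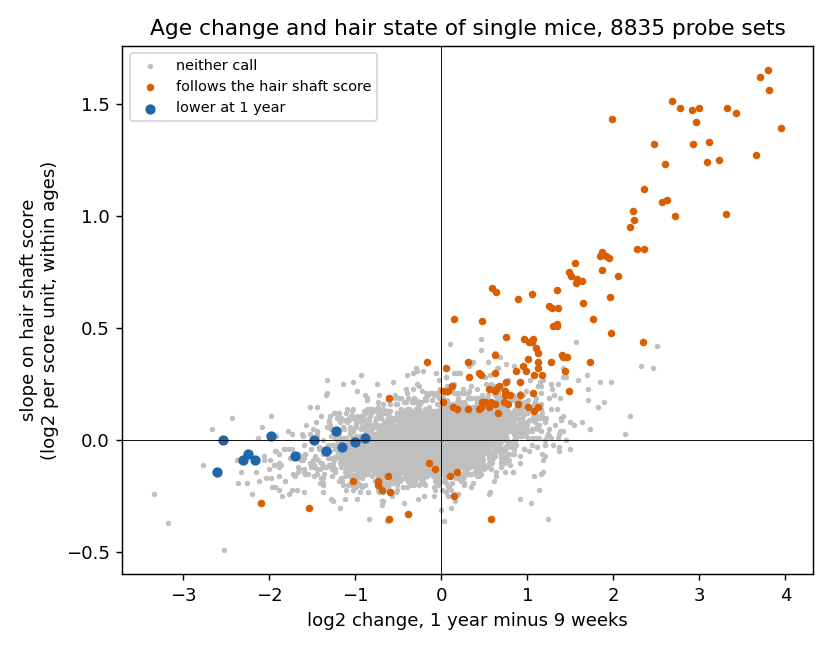
Log2 change from 9 weeks to 1 year (horizontal) against the slope on the hair shaft score within ages (vertical, log2 per score unit) for 8835 probe sets. Orange points have a called slope, hair shaft genes included although they make the score, and blue points are the 13 called lower at 1 year. The large increases with age lie on steep positive slopes, and the blue points have slopes between -0.14 and 0.04.

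Changes of at least 4-fold between the ages split by direction. Of the 35 probe sets at least 4-fold higher at 1 year, 30 followed the hair score, 15 of them in the hair shaft list and 15 outside it, and none passed the test of age. Of the 24 at least 4-fold lower, 1 followed the score and 5 passed the test of age. The 5 increases without a slope were Smyd2, AI506816, Eif2s3y, Serpina1b and 1 probe set without a symbol, named after their values were seen. Smyd2, which encodes a lysine methyltransferase, measured 87.4, 99.8 and 231 units at 9 weeks and 821, 518, 623 and 357 at 1 year, without overlap. Its log2 change was 2.13 ± 0.37 with an adjusted p of 0.0600 (limma), so it narrowly missed the threshold.

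The test of age called 13 probe sets of 8835, or 0.147%. All 13 were lower at 1 year and none was higher, while at an unadjusted p under 0.05 limma gave 483 higher and 757 lower. All 1-year mice lay above all 9-week mice in 400 probe sets, or 4.53%, and below them in 622, or 7.04%. The 13 were probe sets for Mybph, Slfn2, Ccn2, Ncf4, C1qb, F8a, Lyz2, Il6ra, Cd52, Cd300c2, Xdh, Sgk1 and Klf13, with log2 changes between -2.61 and -0.89. The ages did not overlap in any of them. The count rested on single mice: it was 0 without 9-week mouse 2 or 1-year mouse 4, 1 without 9-week mouse 1, 5-month mouse 2 or 5-month mouse 3, and 2 without 5-month mouse 1. It was 69 without 9-week mouse 3 and 52 without 1-year mouse 1, and both of these included all 13. Without 9-week mouse 3 the ages share no sex marker, so those 69 calls cannot be assigned to age rather than sex. Without 1-year mouse 1 every 1-year mouse had a high hair score, against only mouse 3 at 9 weeks. In those 52 calls age and hair phase were largely confounded.

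Of the 13 genes, Lyz2 and C1qb belong to the macrophage and dendritic cell list. Lyz2, the lysozyme of macrophages, measured 4080, 2910 and 2659 units in 9-week mice 1 to 3 and 1127, 967, 825 and 1010 in 1-year mice 1 to 4. C1qb, a chain of the complement component C1q made by tissue macrophages, measured 5534, 2923 and 1793 units and 624, 697, 809 and 638. Cd52, a surface glycoprotein of leukocytes, measured 872, 658 and 540 units and 266, 308, 201 and 310. In each, 9-week mouse 1 was the highest, 9-week mouse 3 was the lowest of its age, and the 1-year mice lay close together below it.

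Ncf4, a subunit of the phagocyte oxidase, measured 267, 179 and 100 units at 9 weeks, and was at the floor of 32.7 units in 3 of the 1-year mice and at 45.0 in the other, so that its fold is limited by the floor. Il6ra, the receptor of interleukin 6, measured 645, 729 and 808 units and 298, 210, 331 and 218. Cd300c2, a receptor of myeloid cells, measured 386, 358 and 423 units and 147, 208, 174 and 145. Among the 9-week mice, Il6ra and Cd300c2 were highest in mouse 3, where Lyz2 was lowest. Slfn2, a member of the Schlafen family active in leukocytes, was called on 1 of its probe sets, at 412, 209 and 234 units against 32.7, 76.2, 48.4 and 40.3. Its brighter probe set, at 1835, 596 and 523 units against 114, 368, 66.0 and 241, changed by -2.37 ± 0.60 with an adjusted p of 0.148.

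The log2 changes were -1.70 ± 0.21 (SE) for Lyz2, -2.16 ± 0.34 for C1qb, -1.34 ± 0.21 for Cd52, -2.25 ± 0.32 for Ncf4, -1.48 ± 0.21 for Il6ra and -1.22 ± 0.18 for Cd300c2. Their limma adjusted p lay between 0.0296 and 0.0496. Those of C1qb and Cd52, 0.0482 and 0.0496, were nearest to the threshold of 0.05. With the floor at the 40th percentile the change was -0.52 for Ncf4, -1.09 for Slfn2 and -0.20 for F8a, and none of these 3 was called (limma adjusted p 0.328, 0.169 and 0.258). C1qb, Cd52 and Mybph were not called there either, at 0.0815, 0.0628 and 0.0628.

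The remaining called genes have other roles. Ccn2, the connective tissue growth factor that is secreted into the matrix, measured 2529, 2528 and 1324 units at 9 weeks and 455, 345, 429 and 438 at 1 year. Its log2 change of -2.30 ± 0.23 had the smallest adjusted p, at 0.0120 (limma), and over the alternative settings this p lay between 3.24e-07 and 0.122. Mybph, a myosin-binding protein of muscle, measured 1424, 1722 and 1252 units and 489, 227, 125 and 232, a change of -2.61 ± 0.37. Among the 1-year mice it was highest in mouse 1, the mouse with the most muscle RNA, and still below all 9-week mice.

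Sgk1, a kinase induced by glucocorticoids and serum, measured 2307, 2377 and 2618 units at 9 weeks and 1451, 1046, 1124 and 1277 at 1 year. Klf13, a zinc finger transcription factor, measured 1916, 2105 and 1879 units and 948, 1026, 1265 and 1018. Xdh, the xanthine dehydrogenase of purine breakdown, measured 1130, 902 and 959 units and 456, 505, 405 and 422. The mice of each age lay close together in these 3 genes, whose log2 changes were -1.0 ± 0.13, -0.89 ± 0.13 and -1.15 ± 0.16. F8a measured 87.0, 161 and 154 units at 9 weeks and lay within 0.1 units of the floor in all 1-year mice, so that its fold is a lower bound, at least 3.95-fold lower.

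**Figure D4:**
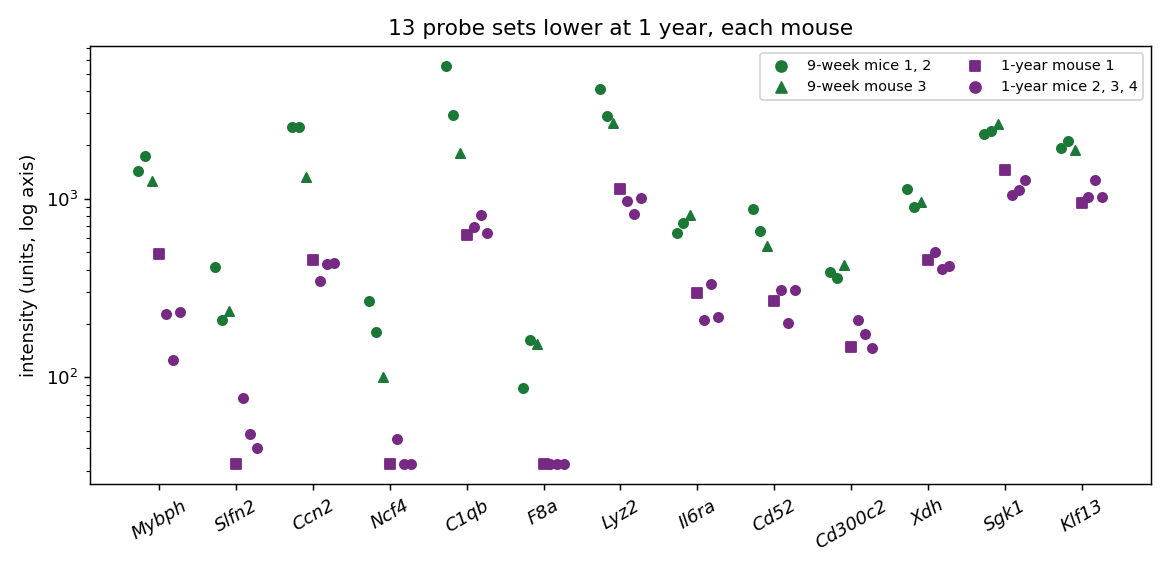
Intensity (units, log axis) of the 13 probe sets called lower at 1 year in each 9-week mouse (green) and 1-year mouse (purple). The triangle is 9-week mouse 3 and the square is 1-year mouse 1, the mice whose hair score differs from most of their age. Green points lie above purple points in every gene.

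In the model with age and the hair score, none of the 13 passed the test of the slope on the hair state of single mice. Their slopes on the hair score lay between -0.14 and 0.04, with the smallest adjusted p at 0.238. With the sex markers added, Mybph alone of the 13 had a called slope, at -0.26 (limma adjusted p = 0.0362). With the score but not the markers in the model, the age changes of the 13 were 0.87 to 1.07 times as large, between -2.54 and -0.93. At the threshold Ccn2 alone was then called, with an adjusted p of 0.00726, and it was the only call of the 8835 probe sets (0.0113%). The other 12 had adjusted p between 0.0535 and 0.0795.

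In the young mice the same genes also differed with phase. All 13 were lower on day 14 than on day 23, and 11 of these differences passed the test, or 84.6%, against 29.7% of all probe sets. Lyz2 had a mean of 291 units on day 14 and 2115 on day 23, and C1qb 253 and 1257. The 1-year levels of Lyz2, 825 to 1127 units, lay between these means, also in 1-year mouse 1, whose hair genes were at the resting level. With the sex markers in the model the age changes of the 13 were 0.74 to 1.11 times as large, and Ccn2 was the only one still called, with an adjusted p of 0.0189 against up to 0.394 for the rest. That model made 3 calls (0.034%): Ccn2 and 2 probe sets of Pdxdc1, which were called higher at 1 year. Without the markers the Pdxdc1 probe sets had limma adjusted p of 0.559 and 0.577. Pdxdc1 was low in 9-week mouse 3 and 5-month mouse 2, both male by marker, at 39.8 and 109 units on 1 of these probe sets. There 9-week mice 1 and 2 were at 332 and 385 units and the 1-year mice at 319 to 471, so the ages overlapped. With the hair score and the sex markers both in the model there were 8 calls. Of the 13, Mybph, Ccn2 and Sgk1 were among them (limma adjusted p 0.0126, 0.0134 and 0.0315).

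Most macrophage and dendritic cell genes lay lower at 1 year. Of 27 measured members 2 passed the test of age, Lyz2 and C1qb, against 0.147% of all probe sets, and 25 had a lower mean at 1 year. In 17 of the 27, or 63%, the ages did not overlap, against 6.93% of all genes. The median log2 change was -1.23, became -1.11 with the hair score and -0.97 with the sex markers in the model, and was -0.01 over all genes. The summed level of the list was 58890, 35535 and 24801 units in 9-week mice 1 to 3 and 13366, 17454, 15677 and 15752 in 1-year mice 1 to 4. The 1-year mice were alike whatever their hair score, and the 9-week mouse with a high hair score was the lowest of its age. No member lay at the floor in all mice of an age. The list was 55880, 39819 and 46792 units at 5 months.

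Among its members, named here after their values were seen, C1qa and C1qc encode the other chains of C1q. C1qa measured 7054, 3925 and 2488 units at 9 weeks and 996, 1261, 1110 and 924 at 1 year. Csf1r, the receptor on which macrophages depend for survival, measured 2827, 2428 and 1785 units and 1004, 1437, 1517 and 1160. Mrc1, the mannose receptor, measured 769, 624 and 356 units and 162, 234, 171 and 234. In all 3 the ages did not overlap, and adjusted p was 0.0644, 0.160 and 0.0960 (limma). Spi1, the transcription factor PU.1 of the myeloid lineage, measured 347, 312 and 240 units and 99.1, 138, 131 and 162, with an adjusted p of 0.0738. Ccl8 and Fcgr3 were the 2 members with a higher mean at 1 year, by 0.36 and 0.33. Without 9-week mouse 3, 12 of the 27 were called lower, and without 1-year mouse 1, 3 were. Over all probe sets, these fits called 49 and 43 lower, in that order. In the fit without 9-week mouse 3, age and sex cannot be told apart. Without 1-year mouse 3 the calls were Lyz2 and Lst1, without 1-year mouse 2 or 5-month mouse 1 Lyz2 alone, and without any 1 of the other 5 adult mice there was none.

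Related immune lists lay on the same side. All 24 measured interferon response genes had a lower mean at 1 year, with a median log2 change of -0.67 and no call. In 6 members, or 25%, the ages did not overlap, against 6.93% of all genes. The list's mean log2 deviation from the adult mice was 0.728, -0.191 and -0.048 in 9-week mice 1 to 3. It was -0.257, -0.335, -0.92 and -0.672 in 1-year mice 1 to 4, so the 9-week level rested mostly on mouse 1. Isg15, a ubiquitin-like protein induced by interferon, measured 869, 233 and 379 units at 9 weeks and 231, 164, 191 and 50.6 at 1 year. Class II antigen presentation had 12 measured genes, a median of -0.71 and no call, and complement had 14, a median of -0.49 and 1 call, C1qb. Ctss, the protease that prepares class II molecules for antigen, measured 4357, 2215 and 2180 units and 1149, 1330, 921 and 1366. With the sex markers in the model the medians were -0.44 for interferon response, -0.38 for class II and -0.32 for complement. T cell and B cell lists had 11 and 16 measured genes, medians of -0.19 and -0.15, and no call.

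Cholesterol synthesis lay on the other side. Of 18 measured genes none passed the test of age, 15 had a higher mean at 1 year, and in 7, or 38.9%, the ages did not overlap, against 4.66% of all genes. The median log2 change was 0.41, and 0.29 with the hair score and 0.13 with the sex markers in the model. Lss, which closes squalene epoxide into lanosterol, measured 150, 181 and 254 units at 9 weeks and 593, 763, 586 and 470 at 1 year. Idi1, which interconverts the isoprene units, measured 575, 543 and 1392 units and 2108, 1948, 1834 and 2264. Sqle, which forms squalene epoxide, measured 740, 1011 and 1503 units and 1782, 1977, 2171 and 1886. These 3 were named after their values were seen, and in each 9-week mouse 3, the male by its marker, lay between the other 9-week mice and the 1-year mice. Adjusted p was 0.0547 for Lss, 0.130 for Idi1 and 0.115 for Sqle (limma). Without 9-week mouse 3, 5 of the 18 were called higher: Msmo1, Lss, Sqle, Cyp51 and Idi1. Over all probe sets, 20 were called higher without that mouse. The ages share no sex marker in that fit, so age and sex cannot be told apart there.

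Proteasome genes shared this pattern at a smaller size, with 30 measured, a median change of 0.25 and no call. In 8 members, or 26.7%, the 1-year mice lay above without overlap, against 4.66% of all genes. The median was 0.19 with the hair score and 0.09 with the sex markers in the model. Dermal collagen and matrix genes did not move as 1 list: of 40, 18 had a higher and 22 a lower mean at 1 year, with no call. Col1a1, the main collagen chain of the dermis, named after its values were seen, measured 20027, 20764 and 39846 units at 9 weeks and 60232, 52300, 48168 and 57436 at 1 year. Its change of 1.09 ± 0.27 had an adjusted p of 0.133 (limma). It was called without 9-week mouse 3, a fit in which age and sex cannot be told apart. Of 32 genes on a senescence and ageing list none was called, and the median change was -0.22. The adipocyte and skeletal muscle lists had medians of -0.29 and -0.15 with no call.

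Of 17 measured genes of the circadian clock none was called, and the median change was -0.28. Per1, from that list, and Fkbp5 and Klf9 were named after their values were seen, and none of the 3 passed the test of age. Fkbp5, a chaperone of the glucocorticoid receptor, measured 6155, 4118 and 3438 units at 9 weeks and 1786, 1292, 627 and 1064 at 1 year. Per1, a repressor in the clock, measured 1113, 1034 and 1062 units and 477, 345, 115 and 318. Klf9, a zinc finger transcription factor, measured 1995, 2746 and 1961 units and 1509, 1142, 842 and 1223. The ages did not overlap in any of the 3, and 1-year mouse 1 was nearest to the 9-week mice in each. Adjusted p was 0.0547, 0.0803 and 0.0927 (limma). With the hair score and the sex markers both in the model it was 0.032, 0.126 and 0.177, so Fkbp5 was called there. Without 1-year mouse 1 all 3 were called, as were the clock genes Per2 and Wee1, which were lower, and Nr1d1, which was higher. Over all probe sets, that fit called 43 lower and 9 higher. Every 1-year mouse in it had a high hair score, so age and hair phase were largely confounded. In the young mice Fkbp5, Per1 and Klf9 were lower on day 14 than on day 23 (limma adjusted p 6.07e-09, 9.36e-05 and 1.68e-10). Of the clock list Per1 was called without 1-year mouse 3, and no member was called without any 1 of the other 8 adult mice. Fkbp5 was also called without 9-week mouse 3, where age and sex cannot be told apart, or without 1-year mouse 3.

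**Figure D5:**
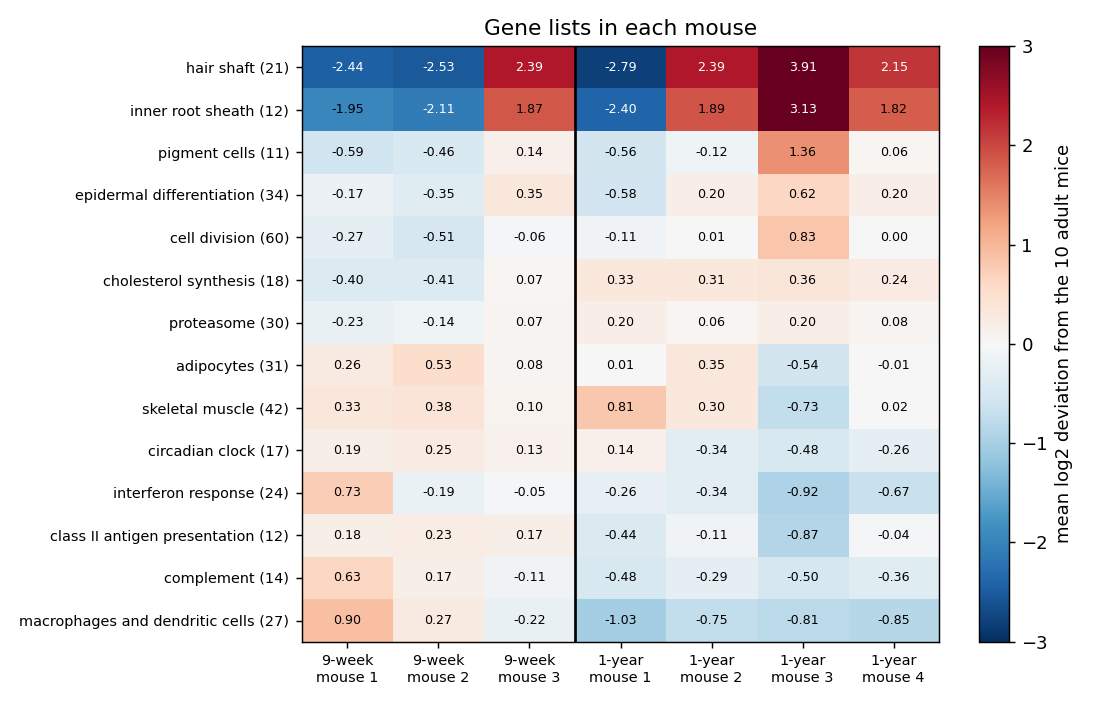
Mean log2 deviation of 14 gene lists from the mean of the 10 adult mice, by mouse, with the number of measured genes in brackets and a line between the ages. Hair shaft and inner root sheath rows follow single mice across the line, whereas the macrophage row runs from -0.22 to 0.90 at 9 weeks and from -1.03 to -0.75 at 1 year.

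Extremes were also counted mouse by mouse. In 9-week mice 1 and 2, 71 probe sets each lay over 4-fold below the median of the other 9-week mice, and 30 and 36 of them followed the score. In 9-week mouse 3, 79 probe sets lay over 4-fold above the median of the other 9-week mice, and 58 of them followed the score, hair shaft genes included. In 1-year mouse 1, 126 lay over 4-fold below the other 1-year mice, and 68 were of that kind. 1-year mouse 3, with the highest score, had 92 above, of which 19 followed the score, and 45 below. In 1-year mouse 4, 9 lay above and 31 below, and none of these followed the score. These counts carry no test.

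Array medians were 197.8 to 206.3 units at 9 weeks and 180.05 to 196.55 at 1 year, and the 3′ to 5′ ratio of the Gapdh control probe sets was 0.97 to 1.1 and 1.04 to 1.23. Correlations of log2 values were 0.897 to 0.941 among 9-week mice, 0.844 to 0.964 among 1-year mice and 0.833 to 0.952 between the ages, so 2 mice of different age could be more alike than 2 of the same age. The highest intensity was 55898.6 to 78877 units on these 7 arrays and 25924.7 to 32416.4 on the 5-month arrays. Basal keratinocyte genes had a summed level of 21954 to 28812 units at 9 weeks and 27567 to 37091 at 1 year. The series holds no other tissue to set this against.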

How the data were processed

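Values are summarised intensities per probe set on a linear scale, deposited by the authors in 1 table. The trimmed mean without 2% at either end was 499.42 to 499.92 on each array, so the arrays had been scaled. What software and scanner made them the labels do not say. Control probe sets (66) were left out. Intensities were set to a floor at the table's 20th percentile (32.7 units) and taken to log2, and probe sets above the 40th percentile (127.8 units) on 3 or more of 25 arrays were tested. Symbols came from the platform annotation: 10855 probe sets have 1 symbol, 396 several and 1237 none here, and 10839 were matched to the GRCm38.p6 gene table. The probe set with the highest adult mean represents a gene.

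Linear models used limma 3.58.1 (R 4.3.3; empirical Bayes with an intensity trend), and p was adjusted by the Benjamini-Hochberg method over all probe sets (threshold 0.05). The adult fit used 10 arrays with 1 mean per age, and the scripts were tested on simulated data. Precision is limited by the number of arrays. The comparison, the members and the lists were chosen with earlier results of these data known. Named genes are the 10 largest called decreases and increases without overlap (there was no increase), up to 4 called members of a list, hair shaft genes spanning over 16-fold within an age, the 8 steepest slopes each way, Xist and Eif2s3y. Other genes named were chosen after their values were seen. Alternatives varied normalization, floor, filter, trend, array weights, which arrays were fitted, mouse number as a block, averaging of probe sets, sex markers, the inner root sheath score and each mouse left out. Sex markers beside the hair score were added after the data were seen.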

Additional observations from a re-analysis of the deposited data

Results flagged for a closer look

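Among the 86 named genes, 11 had 1 of the 4 1-year mice far from the other 3, with a gap to its nearest neighbour, as a share of the whole range of log2 values, above Dixon's 95% critical value. For a gene chosen without regard to its values, chance gives such a gap in about 1 group of 20. Many of the 86 were chosen by these same values, and the hair genes move together. The count of 11 is therefore no test against that rate. The 1-year mouse apart was mouse 1 in 9 of the 11. It lay below the others in the hair shaft genes Krtap8-1 (0.900) and Krtap9-1 (0.871), the inner root sheath genes Krt25 (0.859) and Krt27 (0.872), and Gm10229 (0.855). It lay above the others in Sdc3 (0.890), Ptgis (1), Anxa3 (0.863) and Mfap5 (0.878), at 154, 120, 589 and 781 units against at most 38.8, 32.7, 243 and 344. In Ptgis the other 3 were at the floor. In Ncf4 (1) mouse 2 was at 45.0 units and the others at the floor. In F8a (1) mouse 3 was at 32.8 units and the others at the floor, a gap of 0.1 units.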

How the results depend on the processing

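The 13 calls of age became 23 with arrays centred on medians (3 higher, 13% of calls), 29 with a pseudocount in place of the floor (10.3% higher), 2 without the intensity trend, 243 with array weights (31.3% higher), 0 with the 9-week and 1-year arrays alone, where 5-month mice no longer add to the spread, 647 with all 25 arrays in 1 fit (41.6% higher), 1 with the inner root sheath score and 3 with the sex markers (66.7% higher). With the floor at the 40th percentile 12.5% of 16 calls were higher. The 117 slopes became 61 with that floor, 66 without the filter, 51 with the 7 arrays alone and 666 with all 25. The 1 age call beside the hair score became 2 with centring, 19 with a pseudocount, 4 with the higher floor, 0 without the filter, 2 without the trend, 6 with array weights, 0 with the 7 arrays, 334 with all 25 and 8 with the sex markers added. With mouse number as a replicate block the counts were 1, 37 and 0. Deviations of same-numbered mice correlated between -0.35 and 0.39, so the number pairs no mice. Leaving out each mouse gave 0 to 69 age calls, 65 to 101 slopes, 1 to 6 age calls beside the score and 4270 to 4438 calls of day 14 against day 23, which stood at 4777. Direction was followed only for the 13 probe sets called for age and the 8 steepest slopes each way, and none of these calls reversed. The cause of these moves was not tested unless given. Intensities near the floor limit genes at low level.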
